A study of Mus musculus with 48 samples.

Results

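Coding end joints of Ku70-/- vAbl pro-B cells were compared with those of WT vAbl pro-B cells, junction by junction. The libraries were chosen by their labels, as those made with the Jκ1 coding end bait from cells given STI-571 and DMSO, which left 3 Ku70-/- and 3 WT libraries of 48 in the series. vAbl cells are mouse pro-B cells transformed by the Abelson viral kinase. STI-571, a kinase inhibitor, arrests them in G1 and switches on the RAG endonuclease, and cells of both genotypes received it at 3 µM for 96 h. DMSO is the vehicle of the inhibitors that other libraries of the series received, so no inhibitor of repair was present here. The WT line and the Ku70-/- line are single clones (clone B and clone B1 in the methods), made in earlier work, so that the loss of Ku70 and any other difference between the clones cannot be told apart. A list of DNA junctions holds no reading of Ku70 itself and cannot check the genotype, nor the pro-B cell type.

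RAG cuts between a gene segment and its recombination signal and leaves a coding end, sealed as a hairpin, and a blunt signal end. Ku70 with Ku80 forms the ring that binds broken DNA ends and recruits the kinase DNA-PKcs, the Artemis nuclease that opens hairpins, and the DNA ligase IV complex of nonhomologous end joining (NHEJ). A hairpin opened off its tip leaves an overhang which, once filled in, repeats the end as a short palindrome, called P nucleotides. Without Ku, breaks can still be sealed by alternative end joining (A-EJ), which is known for deletion of end sequence and for joining at short repeats shared by both ends (microhomology, MH).

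The assay, HTGTS-JoinT-seq, extends a primer from the bait, the Jκ1 coding end, across the junction into the prey, here a coding or signal end of a Vκ segment. A coding joint links Jκ1 to a Vκ coding end, and a hybrid joint links it to a Vκ signal end. Vκ segments lie in 2 orientations. A coding joint deletes the DNA up to a deletional Vκ and inverts it for an inversional Vκ, and for hybrid joints the products are the other way round. Each junction was placed at the nearest of 138 Vκ break sites (63 deletional, 75 inversional) and must lie within 200 bp of it. The sites were mapped from signal end bait libraries of STI-571-treated WT cells, given DMSO or the inhibitors L67 or L82-G17. Bases lost were counted from the break to the junction on each side. Bases shared by both sides are MH, bases of neither side are an insertion, and a joint with neither is direct.

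All breaks lie on mouse chromosome 6 (build mm9), and joints are written from Vκ to Jκ1. The Jκ1 coding end (gene Igkj1, chr6:70672556-70672585) is shown because it is present in every joint, and beside it are the 30-base coding ends of the segments used below, each the last bases of a Vκ exon before the break:
Jκ1, chr6:70672556-70672585, plus strand: gtggacgttcggtggaggcaccaagctgga
Igkv3-2 (ENSMUSG00000076602.1), deletional, chr6:70649032-70649061, plus strand: tttctgtcagcaaagtaaggaggttcctcc
Igkv1-135 (ENSMUSG00000076502.1), deletional, chr6:67560473-67560502, plus strand: ttattgctggcaaggtacacattttcctca
Igkv16-104 (ENSMUSG00000076522.1), deletional, chr6:68376037-68376066, plus strand: tactgtcaacagcataatgaatacccgtac
Igkv4-81 (ENSMUSG00000076539.2), inversional, chr6:68940752-68940781, minus strand: actgccagcagtggagtggttacccaccca

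The most used site in WT was Igkv3-2, which held a single joint in all Ku70-/- libraries together, and the most used in Ku70-/- was Igkv1-135. The leading joints of both genotypes are therefore shown at the same segment, Igkv1-135, with the site held constant. Capitals mark inserted bases or, where said, shared bases:
WT, leading joint: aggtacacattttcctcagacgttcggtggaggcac
WT, leading joint with an insertion: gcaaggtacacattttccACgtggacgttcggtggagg
WT, leading joint with MH over 1 bp (capitals shared): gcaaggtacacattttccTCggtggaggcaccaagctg
Ku70-/- libraries 2 and 3, leading joint: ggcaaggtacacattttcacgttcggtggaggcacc
Ku70-/- libraries 2 and 3, leading joint with MH over 1 bp (capitals shared): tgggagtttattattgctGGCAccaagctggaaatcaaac
Ku70-/- library 3, leading joint with an insertion: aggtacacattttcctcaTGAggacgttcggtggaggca
The WT joint kept the whole Vκ end, lost 3 Jκ1 bases and made up 13.6, 15.5 and 15.7% of the joints at that site in the 3 libraries. The leading WT joint with an insertion kept the whole Jκ1 end and carried the dinucleotide AC, the palindrome of that end. The leading joint of Ku70-/- libraries 2 and 3 lost 4 bases on each side and made up 3.45 and 2.72% of the joints at the site, and its MH joint lost 16 Jκ1 and 18 Vκ bases around the 4 shared bases. In Ku70-/- library 1, another joint without insertion (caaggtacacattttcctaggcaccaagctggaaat, 15 Jκ1 and 2 Vκ bases lost) held 50.0% of the joints at Igkv1-135 and was in neither of the other libraries.

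That library stood apart. WT libraries held 344070 to 360917 coding joints of 11006 to 11793 distinct junctions, Ku70-/- libraries 2 and 3 held 75403 and 72197 of 8071 and 7654, and Ku70-/- library 1 held 56229 of only 561. A distinct junction was read 30.4 to 31.3 times on average in WT, 9.34 and 9.43 times in Ku70-/- libraries 2 and 3, and 100 times in library 1, in which 10 junctions made up 30.6% of coding joints. Ku70-/- library 1 is also absent from the library list given with the study. WT libraries shared 55.2 to 59.1% of their distinct junctions pairwise, and Ku70-/- libraries 2 and 3 shared 19.8 and 20.8% of theirs. The shared junctions held 94.7 to 95.5% of coding joints in WT and 35.3 and 35.2% in Ku70-/- libraries 2 and 3. Counting each distinct junction once therefore gives rare junctions the same weight as those that recur between libraries. Duplicate reads were kept in the lists, so read counts are not independent joining events. Values are of joints as deposited unless said otherwise, and those that the copies moved most are given again with each distinct junction counted once. By the methods, experiments were repeated biologically, but nothing in the labels says which libraries of a genotype come from separate cultures, and the tests measure the spread between these libraries.

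Over all 21 measures compared between genotypes, an exact two-sided permutation test over 3 against 3 libraries cannot give a p below 0.1. The genotypes did not overlap in 17 of the 21 measures (exact permutation p = 0.1 each, 0.124 after Benjamini-Hochberg adjustment), so no measure could reach 0.05, and separation is described below as overlap or no overlap between libraries.

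Both ends lost far more sequence in Ku70-/- joints. The Jκ1 end lost 1.24, 1.24 and 1.25 bases on average in the WT libraries and 16.6, 16.5 and 16.97 in the Ku70-/- libraries, a difference of 15.5 bases. The Vκ end lost 2.74, 2.68 and 2.69 bases in WT and 15.8, 17.7 and 18.2 in Ku70-/-, a difference of 14.6 bases. Neither end overlapped between the genotypes, and Ku70-/- library 1 lay with the other Ku70-/- libraries at Jκ1 and below them at Vκ. With each distinct junction counted once the averages were 1.97 to 1.99 against 18.5 to 19.7 bases at Jκ1 and 6.85 to 7.26 against 19.1 to 21.2 bases at Vκ. The distinct junctions include 2106 to 2587 in a WT library whose insertion ends in another Vκ segment (described below), against 6, 319 and 255 in Ku70-/-.

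Bases were not lost evenly along the end. In WT, the Jκ1 end was intact in 41.5, 42.0 and 41.8% of coding joints and lost exactly 2 bases in 30.03 to 30.5%, while losses of 6 bases or more were rare. In Ku70-/-, the Jκ1 end was intact in 0.00889, 0.837 and 0.997% of joints. Losses in Ku70-/- libraries 2 and 3 gathered in 3 groups instead, at 4 and 5 bases (8.37 to 9.46% of joints each), at 9 and 10 bases (5.76 to 6.93% each) and at 15 and 16 bases (5.76 to 8.69% each). In library 1 the highest of these were 9.99% at 5 bases, 15.8% at 9 and 8.57% at 15. At the Vκ end, WT had its peak at 3 bases, 28.8 to 29.03% of joints, and the highest positions were 6.66% at 4 bases in Ku70-/- library 2, 6.47% at 6 in library 3 and 15.4% at 6 in library 1. With each distinct junction once, the WT peak at the Vκ end lay at 0 bases (13.7 to 14.2%), with 10.9 to 11.9% at 3, while at Jκ1 the leading WT positions were again 0 (32.3 to 32.7%) and 2 bases (20.8 to 21.5%). So counted, Ku70-/- libraries 2 and 3 held 4.98 to 6.11% each at 4 and 5 Jκ1 bases, 4.73 to 5.76% at 9 and 10 and 5.24 to 7.71% at 15 and 16. Library 1 held 5.88% at 5, 7.13% at 9 and 7.84% at 15. The highest Vκ positions were then 4.29% at 8 bases in library 2, 4.38% at 7 in library 3 and 8.20% at 6 in library 1. Of the 138 sites, 57 (41.3%) end in the same 5 coding bases, CCTCC.

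**Figure D1:**
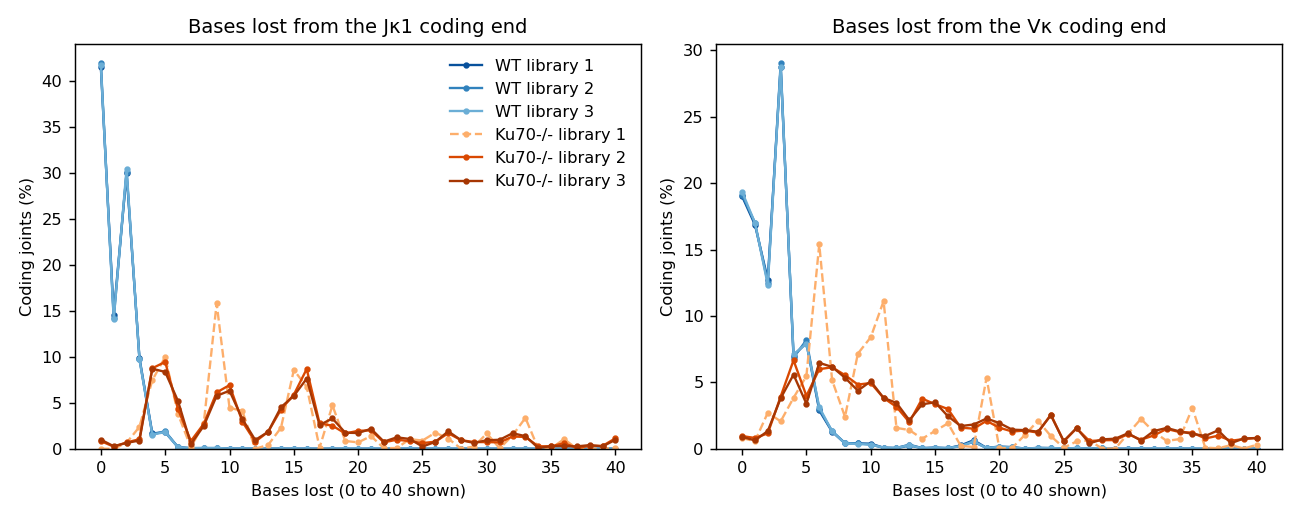
Share of coding joints (%, vertical axis) by the number of bases lost, from 0 to 40, at the Jκ1 coding end (left) and the Vκ coding end (right), with 1 line per library. WT lines peak at 0 and 2 bases at Jκ1 and at 3 at Vκ, and Ku70-/- lines show groups near 4 to 5, 9 to 10 and 15 to 16 bases at Jκ1 and no such single peak at Vκ in libraries 2 and 3, while library 1 stands at 15.4% at 6 Vκ bases.

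The trimming of both ends was then read jointly. In WT the ends were trimmed in opposition: across coding joints of a library, the rank correlation (Spearman) of bases lost at Jκ1 and at Vκ was -0.42, -0.43 and -0.42. In Ku70-/- it was positive, 0.49, 0.54 and 0.51, and with each distinct junction once the values were -0.22 to -0.25 in WT and 0.43 to 0.46 in Ku70-/-. These describe joints, which share libraries, copies and sites. A joint with both ends intact made up 3.38, 3.48 and 3.46% of WT coding joints, 0.43 times the product of the shares of the single ends: the Vκ end was intact in 8.13 to 8.30% of WT joints with an intact Jκ1 end and in 26.7 to 27.3% of those with a trimmed one. In Ku70-/- such joints were 0, 0.143 and 0.102% of coding joints. In libraries 2 and 3 these few joints were 17.8 and 11.4 times the product, and the Vκ end was intact in 17.1 and 10.3% of joints with an intact Jκ1 end against 0.824 and 0.807% of those with a trimmed one, the order opposite to WT. With each distinct junction once, the ratio was 0.577 to 0.598 in WT and 12.6 and 5.82 in Ku70-/- libraries 2 and 3, from only 10 and 6 distinct junctions with both ends intact.

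Deep loss at both ends was the common Ku70-/- joint. Loss of 10 bases or more from each end was found in 39.4, 49.1 and 50.1% of Ku70-/- coding joints and in 0.0205, 0.0299 and 0.0307% of WT joints, which rest on 74 to 106 joints a library, without overlap. The Ku70-/- shares were 1.27, 1.26 and 1.22 times the product of the shares of the single ends, or 0.35, 0.33 and 0.29 on the log2 scale, and the WT shares were 9.17, 14.96 and 12.02 times that product, from few joints. With each distinct junction once, such joints were 0.246 to 0.300% of WT and 50.4, 59.3 and 59.4% of Ku70-/- coding junctions, 1.299, 1.46 and 1.33 times the product in WT and 1.15, 1.12 and 1.11 times in Ku70-/-. The difference in this ratio as deposited turned direction at a limit of 5 bases in place of 10. As the Jκ1 loss rose from 1 to 4 bases, through 5 to 9 and 10 to 19, to 20 or more, the mean Vκ loss in Ku70-/- libraries 2 and 3 went from 8.57 and 8.16 through 9.87 and 11.5 and through 18.5 and 18.2 to 27.1 and 27.4 bases. The joints with an intact Jκ1 end (631 and 720) did not join this order, with 16.5 and 17.2 Vκ bases lost. In WT the mean Vκ loss also fell from joints with an intact Jκ1 end to those with 1 to 4 bases lost, from 3.51 ± 0.0253 (SD, n = 3) to 2.12 ± 0.0455 bases, and these classes hold 41.8 ± 0.222 and 55.9 ± 0.278% of WT coding joints. From 10 Jκ1 bases on it was higher in WT too, 4.25 to 7.50 bases at 10 to 19 and 12.5 to 15.7 at 20 or more, from 70 to 279 joints a class and library.

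**Figure D2:**
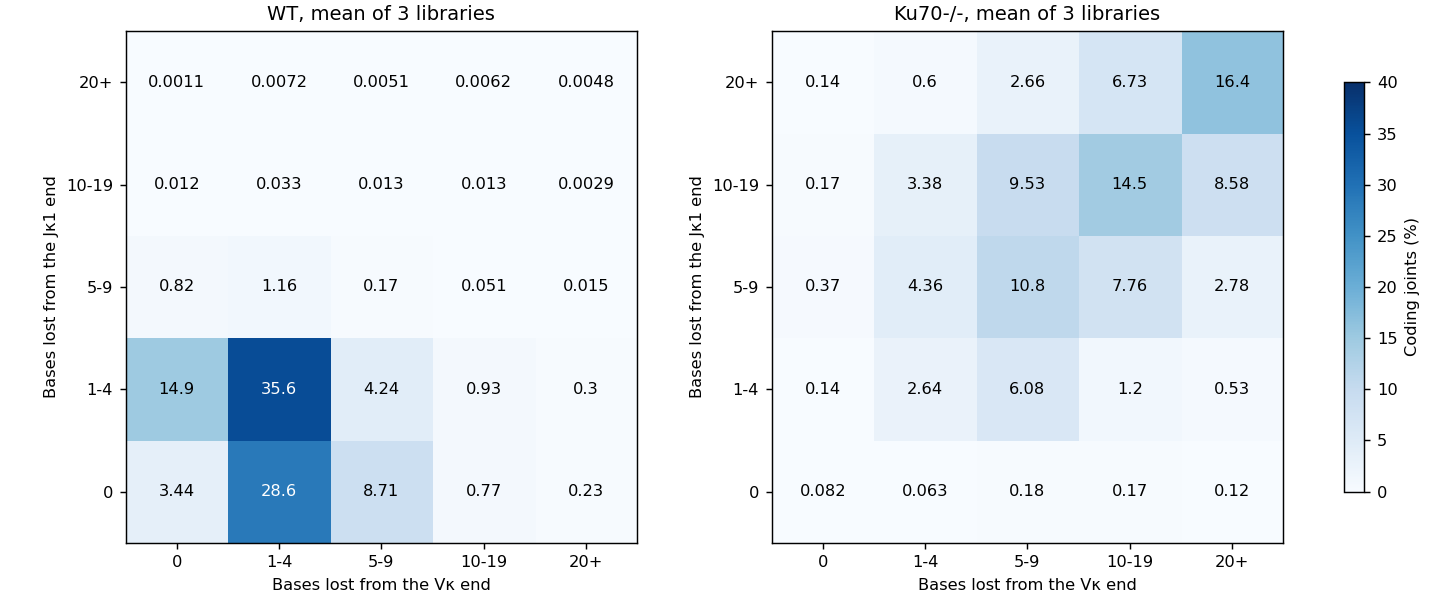
Mean share of coding joints (%, number and shade, n = 3 libraries each) by bases lost from the Vκ end (horizontal axis) and from the Jκ1 end (vertical axis), for WT (left) and Ku70-/- (right). WT joints lie in the lower left corner, led by 35.6% with 1 to 4 bases lost from each end, and Ku70-/- joints lie along the diagonal, where 16.4% lost 20 or more from each end.

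Direct joints made up 70.2 to 70.9% of WT coding joints and 48.6, 52.8 and 53.8% of Ku70-/- coding joints. By distinct junction they were 25.9 to 26.5% in WT and 27.1, 46.6 and 46.8% in Ku70-/-. MH of more than 1 bp was set against the total number of bases lost from both ends. In WT, MH over 1 bp was found in 1.90, 1.83 and 1.87% of coding joints that lost fewer than 10 bases in all and in 3.57, 7.35 and 5.88% of those that lost 10 or more. In Ku70-/- the shares were 21.7, 11.6 and 11.3% below 10 bases and 14.3, 15.4 and 16.3% from 10 bases on. At both levels of loss Ku70-/- was higher than WT without overlap, also with each distinct junction once (2.92 to 3.24 against 13.4 to 32.1% below 10 bases, 1.86 to 2.88 against 13.7 to 17.6% from 10 on). No level of bases shared by chance is set beside these shares, and a preference for MH was not tested.

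Whether the step from low to high loss separated the genotypes depended on the joints counted. The share from 10 bases on minus that below 10 was 1.67, 5.51 and 4.01 percentage points in WT and -7.35, 3.80 and 5.01 in Ku70-/-, overlapping (exact permutation p = 0.6, adjusted 0.630). Without joints whose insertion ends in another Vκ segment, an alternative added after seeing the data, it was 6.65, 13.6 and 11.2 points in WT and -7.35, 3.88 and 5.08 in Ku70-/-, without overlap. At a limit of 5 bases the mean step was 1.05 points in WT and -12.99 in Ku70-/- (difference -14.0), also without overlap but with no value for Ku70-/- library 1. The Ku70-/- step there rests on 306 and 331 joints below 5 bases, most of whose MH was aligned past the break (below), so its direction depends on that alignment. In finer classes, Ku70-/- libraries 2 and 3 had MH over 1 bp in 11.1 and 10.1% of joints at 5 to 9 bases, 18.2 and 17.4% at 10 to 19, 13.8 and 14.6% at 20 to 39 and 15.1 and 17.5% at 40 or more. The few joints that lost 0 to 4 bases in all (306 and 331) held MH over 1 bp in 23.2 and 33.5%, from 33 and 30 distinct junctions in the class. Most of this overlap was aligned past the break: with overlap counted from the break it was 4.90 and 1.21%. The share did not climb steadily with loss in either library, and in library 1, which has few distinct junctions, it went from 21.7 through 2.73 and 17.9 to 24.5%. MH over 3 bp in Ku70-/- libraries 2 and 3 was found in 0.553 and 1.03% of joints at 5 to 9 bases, in 1.56 and 2.40% at 10 to 19, in 2.69 and 2.43% at 20 to 39 and in 3.57 and 3.83% at 40 or more, the highest values of these libraries. Library 1 differed, with 0.245, 0.841, 9.94 and 3.69% in the same classes, its highest at 20 to 39. By distinct junction MH over 3 bp did not rise steadily over these classes in libraries 2 and 3. It was 2.43, 3.20, 2.70 and 3.61% in library 2 and 3.44, 3.07, 3.04 and 3.39% in library 3.

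**Figure D3:**
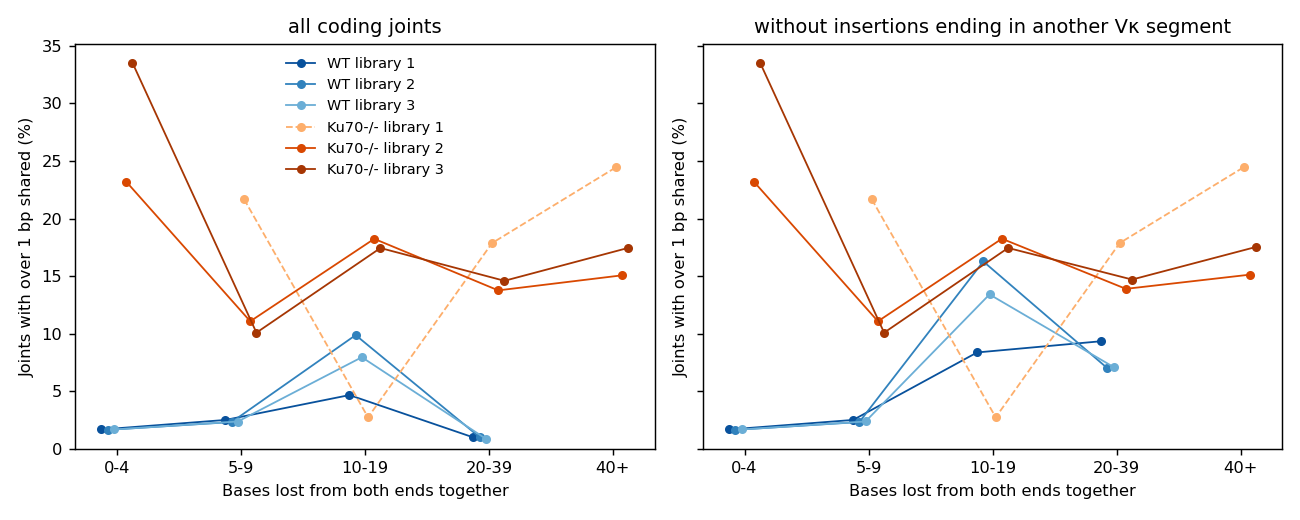
Share of coding joints with more than 1 shared base (%, vertical axis) by the bases lost from both ends together (horizontal axis), with 1 line per library and classes of under 100 joints left out, for all coding joints (left) and without joints whose insertion ends in another Vκ segment (right). The WT lines are higher on the right than on the left at 10 to 19 bases, between 8.37 and 16.3%, where Ku70-/- libraries 2 and 3 stand at 17.4 to 18.3% and library 1 at 2.73%.

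The WT value at high loss depended on a kind of insertion. Without joints whose insertion ends in another Vκ segment (below), MH over 1 bp made up 8.56, 15.5 and 13.1% of the WT joints that lost 10 bases or more, against 14.3, 15.4 and 16.4% in Ku70-/-, and the genotypes overlapped (exact permutation p = 0.3). So counted, joints that lost 10 bases or more numbered 4681 to 4989 in a WT library and 53779 to 67329 in a Ku70-/- library.

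Most WT joints with MH over 1 bp kept the Jκ1 end as deposited, but not when each distinct junction was counted once. The Jκ1 end was intact in 71.1, 72.04 and 71.7% of them, and in 34.9, 34.8 and 34.02% by distinct junction. Among those not aligned past the break, GT at the very end of Jκ1 made up 67.6, 69.1 and 68.5% as deposited and 15.04 to 16.6% by distinct junction, and AC with 4 Jκ1 bases lost made up 18.5 to 20.9% and, by distinct junction, 30.2 to 32.5%, then the leading pair. In Ku70-/- libraries 2 and 3, AC with 4 lost was the leading pair as deposited at 16.6 and 13.4%, followed by TC with 8 lost (8.50 and 6.91%) and AG with 15 lost (5.72 and 3.95%). This order holds for joints as deposited only. By distinct junction, joints with 4 Jκ1 bases lost fell from 8.77 and 8.72% to 4.98 and 5.16% of coding joints in these libraries. The share of them with MH over 1 bp fell from 28.3 and 24.8% to 18.9 and 19.2%. In Ku70-/- library 1 the stretch CGGTGG with 9 lost led with 24.0%, from 1979 joints. Many of these were copies. In that library MH over 1 bp was found in 22.3% of joints with 9 Jκ1 bases lost as deposited and in 5% by distinct junction.

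Much of the WT MH lay at a single site, Igkv16-104. Its coding end reads CGTAC, so that losing its last 2 bases leaves GT, the bases that open Jκ1, as in the leading WT joint at this site (capitals shared): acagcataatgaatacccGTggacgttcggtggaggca. This joint made up 58.4, 59.7 and 57.7% of WT joints at the site. MH over 1 bp was found in 58.9, 60.8 and 58.7% of WT joints there and in 0.877, 14.3 and 18.1% of Ku70-/- joints. The site held 1.47 to 1.59% of WT coding joints but 45.0 to 47.0% of those with MH over 1 bp, and without it the WT share over all sites was 1.09, 1.11 and 1.07% in place of 1.96, 1.99 and 1.99%. Without it the Ku70-/- shares were 14.7, 14.98 and 15.9%. With each distinct junction once, this joint counts as 1 of 108 to 112 WT junctions at the site. The share with MH over 1 bp must then drop in WT, so this count cannot show whether the site stands out. It was 7.41, 7.41 and 6.25% in WT and 14.3, 14.9 and 12.7% in Ku70-/- (7, 161 and 150 junctions), the order opposite to that as deposited.

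Insertions were less frequent in Ku70-/-. They were found in 14.97 to 15.27% of WT coding joints and in 0.973, 2.97 and 3.11% of Ku70-/- coding joints, and in 64.4 to 65.8% against 36.4, 16.6 and 16.3% of distinct junctions, without overlap in either count. The mean length of an insertion was 3.87, 3.52 and 3.69 bases in WT and 2.44, 5.83 and 5.71 in Ku70-/- and overlapped between genotypes (exact permutation p = 0.4). Insertions were shorter in Ku70-/- instead with each distinct junction once, with means of 7.31, 6.84 and 7.06 bases in WT and 2.87, 6.19 and 5.87 in Ku70-/-, without overlap. Insertions of 1 base made up 31.9 to 33.6% of those in WT and 18.7 and 15.7% of those in Ku70-/- libraries 2 and 3, and insertions of 5 to 7 bases made up 2.86 to 2.99% against 16.1 and 23.5%. By distinct junction these shares were 20.8 to 22.8% against 20.7 and 21.1% for 1 base, and 6.98 to 7.62% against 12.7 and 14.3% for 5 to 7. In Ku70-/- library 1, insertions of 1 base made up 27.8% as deposited and 39.2% of its 204 distinct ones, and those of 5 to 7 bases 5.85 and 7.84%.

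Long insertions mostly held part of another Vκ segment, except in Ku70-/- library 1. Of insertions of 8 bases or more, 95.4, 94.3 and 94.7% in WT (5639 to 7398 insertions a library) ended in the last 8 coding bases of a Vκ segment other than the one joined, as did 37.5, 57.9 and 57.8% in Ku70-/- (16, 613 and 528 insertions). Such joints were 1.96, 1.55 and 1.70% of WT coding joints and 0.0107, 0.471 and 0.422% of those in Ku70-/-. They made up 70.1 to 73.1% of the WT joints that lost 10 or more Vκ bases, so most of the deep Vκ loss in WT was measured at the outer segment of a joint that also held a piece of another. In Ku70-/- they were 0.0196, 0.785 and 0.682% of such joints. With each distinct junction once they were 29.6 to 33.3% of WT insertions and 2.94, 23.8 and 20.5% of those in Ku70-/-. Their origin was not tested. Without them the mean insertion was 2.14, 2.13 and 2.16 bases in WT and 2.34, 4.47 and 4.48 in Ku70-/-, no longer overlapping, while by distinct junction the means then overlapped, at 2.93 to 2.96 in WT and 2.60 to 4.06 in Ku70-/-.

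Palindromic insertions, the form that P nucleotides take, were more frequent in WT. An insertion was counted as palindromic if every base of it was the reverse complement of an intact coding end beside it, on the Jκ1 side, the Vκ side or both. Palindromic insertions made up 53.8, 55.6 and 56.1% of WT insertions, none of the 547 in Ku70-/- library 1, and 28.5 and 32.1% in Ku70-/- libraries 2 and 3. By distinct junction the shares were far lower, 15.4, 15.9 and 16.3% in WT and 0, 5.22 and 6.51% in Ku70-/-. Among distinct junctions seen at least 2 times the genotypes overlapped, with 25.5 to 27.2% in WT and 0 to 39.8% in Ku70-/-. AC, the palindrome of the first Jκ1 bases GT, was the leading WT insertion at 22.0, 22.8 and 22.1%, and C, the palindrome of G, was next at 12.6 to 13.5%. By distinct junction T led in each WT library, at 6.57 to 7.40% of insertions against 6.04 to 6.23% for AC. T also led so counted in the Ku70-/- libraries, at 19.6, 8.43 and 8.76%. Of palindromic insertions, 75.8 to 77.6% in WT came from the Jκ1 end only, against 50.9 and 53.8% in Ku70-/- libraries 2 and 3.

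Palindromic insertions were longer in Ku70-/- libraries 2 and 3. GTCCAC, the palindrome of the first 6 Jκ1 bases, made up 3.12 and 5.48% of all insertions in these libraries, from 5 and 8 distinct junctions. The mean length of palindromic insertions was 2.04, 2.06 and 2.07 bases in WT and 5.97 and 5.42 in Ku70-/- libraries 2 and 3, and those over 4 bases made up 1.08, 0.876 and 1.11% of palindromic insertions in WT and 53.6 and 58.1% in Ku70-/-. Counted by distinct junction, the shares over 4 bases were 2.92 to 3.27% of 1130 to 1195 and 57.1 and 54.3% of 70 and 81. The longest spanned 6 to 8 bases in WT and 25 and 18 in Ku70-/-. Library 1 of Ku70-/- has no palindromic insertion, so this rests on 2 libraries and was not tested. The leading Ku70-/- palindromic joints of over 4 bases show the palindrome of the Vκ end in capitals, and in the last of them that of both ends:
Igkv3-10 (20 joints, 2 libraries): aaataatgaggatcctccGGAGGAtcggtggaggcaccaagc
Igkv1-88 (34 joints, 1 library): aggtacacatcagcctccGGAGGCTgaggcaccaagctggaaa
Igkv4-81 (34 joints, 1 library): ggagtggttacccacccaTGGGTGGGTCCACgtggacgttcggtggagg
The joint at Igkv3-10 kept its Vκ end and lost 8 Jκ1 bases, and that at Igkv1-88 lost 14. The joint at Igkv4-81 kept both ends, with 13 inserted bases that read as the palindrome of the Vκ end followed by that of the Jκ1 end.

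**Figure D4:**
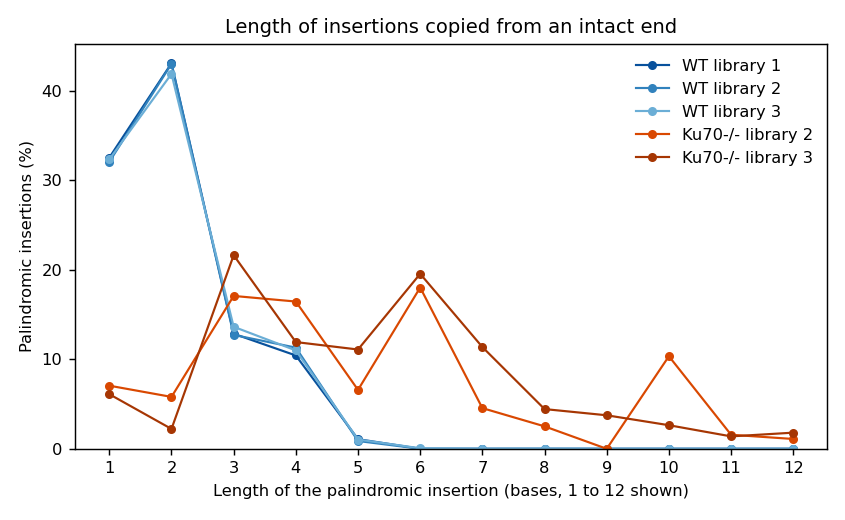
Share of palindromic insertions (%, vertical axis) by their length (bases, horizontal axis, 1 to 12 shown), with 1 line per library. The WT lines peak at 2 bases, and the lines of Ku70-/- libraries 2 and 3 peak at 3 and 6 bases. Ku70-/- library 1 holds no such insertion.

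Where an end was intact in Ku70-/- libraries 2 and 3, a palindromic insertion was more frequent than in WT. Counting only ends aligned exactly to the break, at least 1 end was intact in 55.9, 56.3 and 56.5% of WT coding joints and in 0.0107, 1.302 and 1.47% of those in Ku70-/-. Of these joints, 14.7, 14.8 and 14.9% in WT and 65.0 and 68.1% in Ku70-/- libraries 2 and 3 (982 and 1058 joints) carried a palindromic insertion, and 73.7 to 74.0% in WT and 11.9 and 18.7% in Ku70-/- were direct. By distinct junction the palindromic shares were 25.6 to 26.3% in WT and 57.9 and 57.4% in Ku70-/- libraries 2 and 3 (121 and 141 junctions), and the direct shares 26.7 to 27.6% and 13.2 and 16.3%. Joints with both ends trimmed had an insertion in 9.64, 9.17 and 9.05% of WT cases and in 0.970, 2.13 and 2.07% of Ku70-/- cases. The share with an insertion among joints with an intact end minus that among joints with none was 9.85, 10.1 and 10.3 percentage points in WT and 0.329, 51.2 and 57.7 in Ku70-/- and overlapped (exact permutation p = 0.4). The overlap came from Ku70-/- library 1, in which 1.31% of the 457 joints with only the Vκ end intact held an insertion. The share of joints with an intact end that held any insertion, as deposited 19.2 to 19.5% in WT and 53.3 and 59.8% in Ku70-/- libraries 2 and 3, was not higher in Ku70-/- by distinct junction, at 64.1 to 65.5% in WT and 55.3 and 58.7% in these libraries. The share minus that among joints with both ends trimmed was then -1.13 to 0.824 percentage points in WT and 39.5 and 43.4 in these libraries, with -11.5 in library 1.

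The bases of the other insertions differed as well. Non-palindromic insertions were 48.3% G or C in each WT library and 42.0, 44.5 and 44.5% in the Ku70-/- libraries, without overlap. C made up 32.95, 33.6 and 33.1% of these bases in WT and 13.1, 22.4 and 20.8% in Ku70-/-, and G 15.3, 14.7 and 15.2% against 28.9, 22.1 and 23.7%. The order of C and G was thus reversed in Ku70-/- library 1 and library 3 and near equal in library 2. By distinct junction C made up 31.2 to 31.7% and G 14.8 to 15.04% in WT, against 17.9, 22.8 and 21.5% C and 21.5, 21.4 and 22.02% G in Ku70-/-. These values include insertions that end in another Vκ segment. As deposited, a WT library held 122408 to 152737 non-palindromic bases with them and 39251 to 42112 without. Without them G or C made up 52.6, 51.6 and 51.4% in WT and 42.5, 45.7 and 45.7% in Ku70-/-, also without overlap.

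Trimming was deep in Ku70-/- at segments of both orientations. In Ku70-/- libraries 2 and 3 the Vκ end lost 17.5 and 18.5 bases at deletional and 17.8 and 18.1 at inversional segments, and in library 1 it lost 14.6 and 16.8. In WT it lost 2.39 to 2.43 and 2.88 to 2.95 bases. The inversional minus deletional difference was 0.53, 0.49 and 0.46 bases in WT and 2.24, 0.27 and -0.40 in Ku70-/-, an overlap (exact permutation p = 1.0) that leaves differences of this order undetectable with 3 libraries that spread by 1.37 bases (SD).

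MH was more frequent at deletional segments in WT, much of it at Igkv16-104. MH over 1 bp was found in 3.46, 3.45 and 3.41% of WT coding joints at deletional and in 0.946, 0.981 and 0.958% at inversional segments, against 9.52, 14.6 and 14.9% and 18.8, 15.2 and 16.7% in Ku70-/-. The inversional minus deletional difference was -2.51, -2.47 and -2.45 percentage points in WT and 9.24, 0.63 and 1.84 in Ku70-/-, without overlap. The genotypes differed by 6.38 points on average, and by 3.71 without Ku70-/- library 1. Without Igkv16-104 the deletional share in WT was 1.31, 1.31 and 1.23%, and with each distinct junction once the genotypes overlapped (-1.17 to -0.36 against -0.52 to 4.16). For MH over 2 bp they overlapped too, with -0.19 to -0.060 in WT and -0.91 to 0.40 in Ku70-/-.

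Inversional segments took 59.6, 59.1 and 57.9% of coding joints in WT and 55.6, 57.2 and 54.4% in Ku70-/-, without overlap. The size of this difference depended on the sites counted. The 5 neighboring deletional segments from Igkv3-7 to Igkv3-2 held 8.20 to 8.60% of WT coding joints and 0, 1 and 3 joints in the Ku70-/- libraries, and without them the difference was -8.53 in place of -3.18 percentage points. With only the 93 sites beside an annotated Vκ gene it was -1.93 and the genotypes overlapped.

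Hybrid joints were more frequent at inversional than at deletional segments in Ku70-/-. Per 100 coding joints there were 44.0, 32.6 and 29.8 hybrid joints at deletional and 86.1, 60.7 and 65.5 at inversional segments in Ku70-/-, against 0.143 to 0.222 and 0.216 to 0.247 in WT. By distinct junction there were 37.8 to 40.8 and 70.4 to 71.5 in Ku70-/-. In WT there were then 1.08 to 1.44 and 1.08 to 1.14, not more at inversional segments. Inversional segments held 71.0, 71.4 and 72.4% of Ku70-/- hybrid joints and 62.2, 68.6 and 63.1% of the 640 to 855 hybrid joints of a WT library. Since a hybrid joint at an inversional segment deletes the DNA between, products that delete made up 55.1, 52.2 and 54.4% of all Vκ joints in Ku70-/- and 40.4, 40.9 and 42.1% in WT, without overlap.

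**Figure D5:**
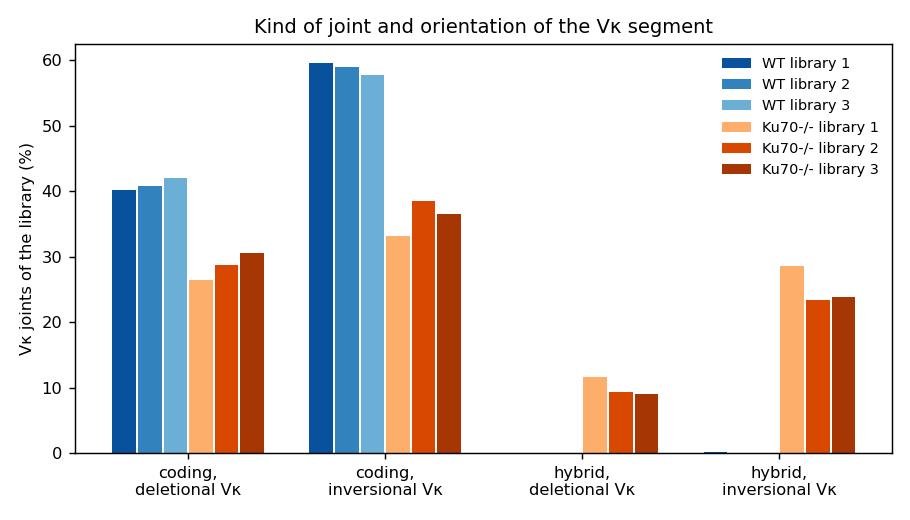
Share of all Vκ joints of a library (%, vertical axis) that were coding or hybrid joints at deletional or inversional Vκ segments, with 1 bar per library. WT bars stand at 40.3 to 42.0% and 57.8 to 59.5% for coding joints and near 0 for hybrid joints, and Ku70-/- hybrid joints at inversional segments take 23.4 to 28.6%.

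Hybrid joints had also lost more bases in Ku70-/-. The Jκ1 end lost 15.6, 18.6 and 18.2 bases and the Vκ signal end 15.5, 16.6 and 16.9 bases in Ku70-/-, against 1.57, 1.52 and 1.67 and 2.27, 1.81 and 2.07 bases in WT. The signal end, which is blunt and needs no opening, was intact in 5.996 to 7.02% of Ku70-/- hybrid joints of libraries 2 and 3, in 22.7% of deletional and 5.86% of inversional ones of library 1, and in 48.3 to 62.9% of WT hybrid joints. By distinct junction the shares of library 1 were 14.4 and 4.76%. MH over 1 bp was found in 18.7 to 21.4% of Ku70-/- hybrid joints of libraries 2 and 3 and in 1.99% of deletional and 9.70% of inversional ones of library 1. By distinct junction MH over 1 bp was found in 18.8 to 21.0% in libraries 2 and 3, and in 13.4 and 12.1% in library 1. In WT it was found in 44.4 to 61.6% as deposited and in 19.4 to 33.8% when counted from the break. Both the Jκ1 flank and most Vκ signal ends (111 of 138) carry the heptamer CACAGTG, and the bait was aligned past the break in 17.2 to 29.1% of WT hybrid joints.

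The loss at the Vκ end was then compared at each of 102 sites with at least 50 coding joints on average, by limma across sites. It was higher in Ku70-/- at 102 of 102 sites and passed the test, at an adjusted p under 0.05, at 94 of them (92.2% of sites tested), all higher. The median over sites was 2.72 bases in WT and 17.3 in Ku70-/-, and differences ran from 4.77 to 52.1 bases. Ku70-/- library 1 had enough joints at 68 of the 102 sites, and the others rest on 5 libraries. Without Ku70-/- library 2 or 3, 53 of 68 sites passed in each case.

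Among the sites that passed, those with the largest differences all had a far higher value in Ku70-/- library 1. Igkv10-95 (deletional) lost 2.93, 2.505 and 3.07 bases in WT and 43.0, 27.8 and 30.8 in Ku70-/-, a difference of 31.0 ± 4.10 bases (SE, limma adjusted p = 0.00138). Igkv9-124 (inversional) lost 2.52 to 3.05 in WT and 51.6, 23.6 and 23.2 in Ku70-/-, and an inversional break with no annotated gene at position 68581957 lost 2.01 to 2.35 and 47.9, 16.5 and 17.4. At both, libraries 2 and 3 lay nearer the median of all sites. The smallest differences that passed were at Igkv17-121 (4.77 ± 1.29 bases, adjusted p = 0.0222, no value from library 1), at Igkv12-38 (5.21 ± 1.27, adjusted p = 0.0120) and at an inversional break at position 69413188 (6.70 ± 1.95, adjusted p = 0.0210). At Igkv12-38 the Ku70-/- libraries lost 6.02, 9.54 and 6.76 bases, against 2.04 to 2.47 in WT.

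MH over 1 bp was higher in Ku70-/- at 97 of 102 sites, with a median difference of 11.3 percentage points, and 3 sites passed the test (2.94% of sites tested). At the inversional break at position 69060898, which has no annotated gene, it was 1.73, 0.438 and 0.672% in WT and 19.5, 17.9 and 23.3% in Ku70-/- (difference 19.3 ± 2.02, limma adjusted p = 0.0104). At Igkv11-125 (deletional) it was 0.0496 to 0.203% and 18.8, 11.9 and 13.5% (14.6 ± 2.32, adjusted p = 0.0486). At Igkv16-104 the fit gave -48.4 ± 4.88 (adjusted p = 0.0104), the only site that passed with less MH in Ku70-/-. By distinct junction the shares there were 6.25 to 7.41% in WT and 12.7 to 14.9% in Ku70-/-. The leading WT joint then counts once, so the WT share must drop and this order cannot decide the direction. The number of sites that passed turned on library 1: without it 65 of 104 sites passed, 64 of them higher in Ku70-/-. It was 48 of 94 with each distinct junction once, all higher, 3 of 68 without Ku70-/- library 2 (2 higher and 1 lower), 1 of 68 without library 3, which was lower, and 0 when any WT library was left out (13 sites at an unadjusted limma p under 0.05 in each case, against 23 with all libraries).

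The 5 sites most used in WT and the 5 most used in Ku70-/- were 10 different sites. Igkv3-2 could not be tested, with 1 Ku70-/- joint, and at the other 9 Vκ loss was higher in Ku70-/- without overlap, by 9.23 to 30.4 bases, and passed the site fit at 8. Over all sites tested the genotypes did not overlap at 101 of 102 (99.0%) and 92.2% passed, so these counts lie near the background. Igkv12-46 (inversional) did not pass, with 2.72 to 2.84 bases in WT and 66.9, 16.6 and 15.9 in Ku70-/- (limma adjusted p = 0.0901), the value of library 1 standing far above the others. At Igkv1-135, Vκ loss was 2.17, 2.24 and 2.19 bases in WT and 14.95, 21.4 and 18.2 in Ku70-/-, and the site took 2.29 ± 0.0407% of WT coding joints and 5.23 ± 0.581% of those in Ku70-/- (SD, n = 3). At Igkv3-12 (deletional), second most used in WT, the loss was 2.89 to 2.98 and 17.1, 13.05 and 14.2 bases. At Igkv4-81 it was 3.37 to 3.60 and 7.28, 18.3 and 12.7 bases, and the site held 8.35% of coding joints in library 1 but 1.11 and 1.34% in libraries 2 and 3.

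MH over 1 bp passed the site fit at 0 of these 9 sites (limma, 2 at an unadjusted p under 0.05). The mean was higher in Ku70-/- at all 9, by 6.88 to 40.6 percentage points, and the genotypes did not overlap at 7, where over all sites tested they did not overlap at 57 of 102 (55.9%). They overlapped at Igkv4-81, with 0.525 to 1.61% in WT and 0.0639, 14.1 and 20.9% in Ku70-/-, and at Igkv1-88, with 0.0503 to 0.203% and 0, 14.6 and 18.4%, library 1 being the lowest of all libraries at both. At Igkv3-12 library 1 was the highest instead, with 88.9% against 15.9 and 18.6% in libraries 2 and 3 and 0.122 to 0.663% in WT (limma adjusted p = 0.204). At Igkv1-135 it was 1.86, 1.70 and 1.40% in WT and 8.54, 14.9 and 16.2% in Ku70-/-, without overlap (limma adjusted p = 0.0815).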

How the data were processed

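Genomic DNA of 6 libraries was analysed. By the methods and the labels, the authors sampled each library to 500000 read pairs, mapped them with Bowtie2 to mm9 and kept duplicate reads in junction lists, 1 line per read with its bait end, its prey position and strand, and the junction sequence. Bait loss could reach 54 bases and insertions 30, the largest in the lists, so longer ones are not seen. About 90% of junctions in every library came from the larger of 2 sequencing runs.

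From the deposited junctions, Vκ breaks were placed at pileups of at least 30 signal end junctions that begin with CAC. These junctions came from STI-571-treated WT libraries with DMSO, L67 or L82-G17. Junctions were called distinct where the base reached on either side, the strand or the overlap or insertion differed. Genotypes were compared over libraries with an exact permutation test, two-sided (SciPy 1.17.1), with Benjamini-Hochberg adjustment over 21 measures. Site values, from at least 50 coding joints on average and 10 in a library, were compared by limma 3.58.1 (R 4.3.3). On simulated data for 102 sites with 30 shifted, it recovered 21 shifts of 15 bases lost and 15 shifts of 20 percentage points of MH, with 0 false calls. The simulation gave both genotypes the same spread at a site, whereas Ku70-/- libraries mostly spread more than WT in the data. It therefore cannot show how many false calls the data hold. Sites named are the 3 highest and 3 lowest differences among those past the threshold without overlap, the 5 most used in each genotype where described, and sites that a result turned on (Igkv16-104, the Igkv3 group, and those of the palindromic joints), named after their values were seen. Gene names came from the mm9 annotation, and 93 of 138 sites lay beside an annotated Vκ gene.

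The measures and sites were chosen with earlier results of these data known. Leaving out insertions that end in another Vκ segment, the 5 Igkv3 sites or Igkv16-104, counting from the break, counting shared bases as lost and using the smaller run were added after seeing the data.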

Additional observations from a re-analysis of the deposited data

Results flagged for a closer look

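The difference in MH over 1 bp between inversional and deletional Vκ segments was 6.38 percentage points higher in Ku70-/- (3.90 ± 4.66, SD, n = 3 libraries) than in WT (-2.48 ± 0.0308), and lay below 0 in all 3 WT libraries and above 0 in all 3 Ku70-/- libraries (exact permutation p = 0.1, the smallest this design allows, adjusted 0.124). Without Igkv16-104 the difference between genotypes was 4.24, without Ku70-/- library 1 it was 3.71, and with each distinct junction once it was 2.00 and the genotypes overlapped. For MH over 2 bp it was -0.018, overlapping. The rank correlation of bases lost at the Jκ1 end and at the Vκ end over coding joints was 0.933 higher on average in Ku70-/- than in WT, negative in all 3 WT libraries and positive in all 3 Ku70-/- libraries, and this difference was not tested.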

How the results depend on the processing

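Of 393 values recomputed under alternatives, 358 kept their direction and their side of the threshold (for permutation results, no overlap between genotypes), and the loss at both ends, the shares of intact ends and of deep loss at both ends, MH at low loss, the share with insertions, deletion products and hybrid losses did so under each alternative tried. All differences here are Ku70-/- minus WT. At a limit of 5 bases, the excess of deep loss at both ends over the product of the single ends changed from -3.24 to 0.38 on the log2 scale. The class below 5 bases held only 306 and 331 joints in Ku70-/- libraries 2 and 3, most of whose MH was aligned past the break. With this class, the step in MH from low to high loss was -14.0 percentage points, without overlap. This step was 5.43 at a limit of 20 bases, 1.02 with shared bases counted as lost, -9.96 without insertions that end in another Vκ segment, -7.95 with distinct junctions once as well, these last 2 without overlap, and -5.50 to 0.67 with each library left out, 0.67 being without Ku70-/- library 1. MH at high loss without insertions that end in another Vκ segment differed by 3.03 and overlapped. Mean insertion length differed by -2.09 bases with each distinct junction once, without overlap, -0.89 with those seen at least 2 times, 1.62 without insertions that end in another Vκ segment, also without overlap, and 0.38 to 2.08 with each library left out, the last without Ku70-/- library 1. With distinct junctions seen at least 2 times, the palindromic share differed by -2.25 percentage points and the inversional share of hybrid joints by 7.33, both overlapping, and the excess of insertions at intact ends by 32.7, no longer overlapping. That excess was 15.7 to 44.4 with each library left out, the last without Ku70-/- library 1. With annotated sites only, the inversional share of coding joints differed by -1.93, overlapping. The orientation difference in Vκ loss, 0.21 bases, was -1.33 with each distinct junction once, -1.61 with those seen at least 2 times, -0.32 at annotated sites, -0.41 with distinct junctions once without insertions that end in another Vκ segment, and -0.55 to 0.76 with each library left out, the first without Ku70-/- library 1. That in MH was 2.00 with each distinct junction once and 2.12 when insertions that end in another Vκ segment were also left out, both overlapping, 3.71 to 8.01 with each library left out, the first without Ku70-/- library 1, and -0.018 for MH over 2 bp. Sites with a changed Vκ loss numbered 53 to 101 with each library left out. Sites with changed MH numbered 0 to 65 with each library left out, 5 at 20 or more joints, 48 with each distinct junction once and 0 with a robust trended prior (limma, 27 at an unadjusted p under 0.05). The causes of these changes were not tested. No paired analysis was possible because the labels give no replicate numbers, and the library numbers used here are names only. The 3 libraries a genotype and the 561 distinct junctions of Ku70-/- library 1 limit the precision of every Ku70-/- value.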
